A study of Mus musculus with 12 samples.

Results

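The germ cell surface marker genes described here are Epcam, Cdh1, Cd9, Thy1, Mcam, Cd24a, Pecam1 and Cd93. They encode cell surface proteins whose antibodies are in common use to recognise or sort germ cells and stem cells, and they were taken by symbol: each corresponded to 1 Ensembl identifier among the 55487 genes of the table, so the set is 8 of 55487 genes. Transcripts were sequenced from germ cells of the male mouse gonad, the testis, at embryonic days E13.5 and E16.5, on the day of birth (P0) and at postnatal day 3 (P3), with 3 libraries at each of the 4 stages. The cells are called gonocytes, the germ cells of the fetal and newborn testis from which spermatogonia form. They came from Mvh-Venus transgenic mice, in which regulatory sequence of the germ cell gene Mvh (Ddx4) drives a fluorescent protein, so the 8 genes themselves are not named as the basis of isolation. The study as a whole is about the loss of Morc1, a gene needed for silencing in male germ cells. Its chromatin accessibility and H3K9me3 profiles were not analysed here.

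The genotype of the libraries is uncertain. By title and source name every library is wild type. A separate tag for genotype gives Morc1 (+/-) for E13.5 and P0, and Morc1 (-/-) for E16.5 and P3. Libraries were therefore grouped by stage alone. Comparing consecutive stages, or P3 with E13.5, also crosses that tag, and there stage and genotype cannot be told apart. Only P0 against E13.5 and P3 against E16.5 stay within 1 tag value. Nothing in the labels says that the 3 libraries of a stage came from separate animals, so the p-values measure the spread between these libraries, which may be technical. In bulk RNA, fewer cells of a type and less RNA per cell cannot be told apart.

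As background, EpCAM and E-cadherin (the product of Cdh1) are adhesion proteins of epithelia that germ cells also carry; E-cadherin binds its like on a neighbouring cell and is tied to actin through catenins. CD9 is a tetraspanin, a small protein with several membrane passes that gathers integrins and other receptors into patches. THY1, MCAM (also called CD146) and PECAM1 (CD31) belong to the immunoglobulin superfamily, THY1 and the small mucin-like CD24 are held by a lipid anchor, and CD93 is a C-type lectin-like receptor of endothelium and blood progenitors. PECAM1 is used to pick out fetal germ cells, and EpCAM, E-cadherin, CD9 and THY1 are used to enrich spermatogonial stem cells. Several of these proteins also mark other cells of the testis: PECAM1, CD93 and MCAM endothelium, MCAM pericytes, THY1 stromal cells and T cells, CD9 platelets, and CD24 red cell precursors. Markers of those cells were for this reason read beside the 8 genes.

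Promoter sequences are shown for Epcam, Cd9 and Mcam, the members for which a window could be matched. Mcam and Cd9 had the highest counts at P3, and Epcam was the most abundant member at E13.5. RefSeq windows on GRCm38.p6, reaching from 250 bases before to 50 bases after the RefSeq start site, were matched for 3 of the 8 members. For Mcam and Cd9 this site lies downstream of the start of the gene model given below. The Mcam model begins at 44134469 and the Cd9 model at 125494791, both inside the window. All 5 GC boxes of the Mcam window lie within that gene model. The windows are printed 5′ to 3′ on the gene's strand, with the GC box (GGGCGG, or CCGCCC on the other strand) in capitals. The Epcam window is chr17:87635729-87636028 (plus strand), that of Cd9 is chr6:125494711-125495010 (minus strand), and that of Mcam is chr9:44134408-44134707 (plus strand).
Epcam: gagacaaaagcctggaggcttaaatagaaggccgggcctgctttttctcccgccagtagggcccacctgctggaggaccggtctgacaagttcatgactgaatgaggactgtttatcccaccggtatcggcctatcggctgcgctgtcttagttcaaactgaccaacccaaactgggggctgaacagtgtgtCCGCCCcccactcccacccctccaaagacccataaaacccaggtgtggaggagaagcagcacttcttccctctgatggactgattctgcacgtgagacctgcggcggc
Cd9: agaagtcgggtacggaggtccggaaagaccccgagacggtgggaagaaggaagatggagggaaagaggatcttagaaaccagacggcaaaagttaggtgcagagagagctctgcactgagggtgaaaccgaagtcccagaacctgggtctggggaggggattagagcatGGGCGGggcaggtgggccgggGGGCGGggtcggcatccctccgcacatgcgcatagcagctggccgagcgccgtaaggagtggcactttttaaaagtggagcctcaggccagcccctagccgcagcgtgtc
Mcam: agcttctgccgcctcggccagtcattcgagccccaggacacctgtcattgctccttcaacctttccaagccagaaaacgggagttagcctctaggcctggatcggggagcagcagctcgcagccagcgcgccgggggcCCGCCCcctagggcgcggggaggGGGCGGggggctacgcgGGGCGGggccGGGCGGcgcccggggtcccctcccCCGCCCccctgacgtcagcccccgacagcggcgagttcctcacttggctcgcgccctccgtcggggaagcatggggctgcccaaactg

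Both strands were searched for the GC box, the TATA box (TATAAA), the CCAAT box (CCAAT) and the E-box bound by Snail and Zeb factors (CACCTG), each counted without regard to overlap with another. Epcam held 1 GC box, Cd9 held 2 and Mcam held 5, while 35.7% of all 32851 windows of 300 bases held at least 1. The CACCTG letters were found at 2 places in the Epcam window and at 1 place each in those of Cd9 and Mcam, against 20.2% of all windows with at least 1. TATAAA, held by 13.6% of windows, and CCAAT, held by 37.4%, were in none of the 3. Bases G and C made up 57.0% of the Epcam window, 61.3% of the Cd9 window and 72.7% of the Mcam window, where the median window had 52.7%. The windows held 11, 18 and 29 CpG dinucleotides in the same order, against a median of 7. More bases of G and C than in Mcam were thus rare: 93.9% of windows had less. These matches describe letters, not binding sites.

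Values are the deposited normalized counts: reads assigned to a gene, divided by 1 scaling factor per library. Libraries held 40946616 to 51533747 such reads. They are named by stage and by the numbers 1, 3 and 4 of the table's column heads, always in that order, and each ± is an SD over the 3 libraries of a stage. Changes were tested with limma on log2(normalized count + 1) over 22384 genes that had a normalized count of 10 or more in 3 or more libraries; a gene was called changed at a Benjamini-Hochberg adjusted p under 0.05, and a fold change on this scale understates that of low genes. All 8 members passed this filter, Thy1 and Cd93 through their later libraries alone, so the calls of these 2 against E13.5 lean on the filter. Among the stages 95.2% of all genes tested were called, as were all 8 members, so a call alone says little and sizes are given throughout. The germ cell genes Ddx4, Dazl and Mael were abundant at every stage, with a lowest stage mean of 23180.3 for Ddx4, 35953 for Dazl and 14374 for Mael. Nanos3 and Dppa3 were not: Nanos3 held 34.0 ± 12.4 at P0, and Dppa3 182 ± 26.9 at P0 and 17.8 ± 5.22 at P3. The summed count of 10 such markers was 334877 to 350586 for E13.5, 298063 to 328423 for E16.5, 161923 to 172823 for P0 and 268198 to 285898 for P3; from E16.5 to P0, 1 of the 10 rose and 8 fell (2 and 6 with equal totals). Marker sums given here and below use the deposited scaling, whose factors were largest at P0. The low place of P0 among the germ cell sums hangs on that scaling. From P0 to P3, 7 of the 10 germ cell markers rose and 2 fell, and with equal totals 5 rose and 4 fell. Genes with a value above 0 numbered 22678 to 22774 at E13.5 and 34207 to 34857 at P0. Sums over Sertoli cell markers, the supporting cells around germ cells, were 3901 to 5417 for E13.5, 12716 to 19435 for E16.5, 21839 to 43114 for P0 and 8858 to 11634 for P3.

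Scaling matters for P0. The scaling factors of the file were 1.84 to 2.07 at P0 and lower in all other libraries, down to 0.919. Setting all libraries to equal totals instead moved the all-gene median of the log2 fold change by 0.69 in P0 against E16.5, by -0.91 in P3 against P0, by 1.31 in P0 against E13.5 and by 0.53 in E16.5 against E13.5. Median-of-ratios factors moved the same 4 medians by 0.27, -0.47, 0.55 and 0.24, and TMM factors by 0.12, -0.18, 0.23 and 0.10. The deposited factors are labelled RLE (relative log expression) and were not the same as the median-of-ratios factors computed here. The reason for this difference was not tested. For P3 against E13.5 and P3 against E16.5 the equal-total shifts were 0.31 and -0.20. Where such a rescaling turns a member's direction or ends its call, this is stated with the result.

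**Figure D1:**
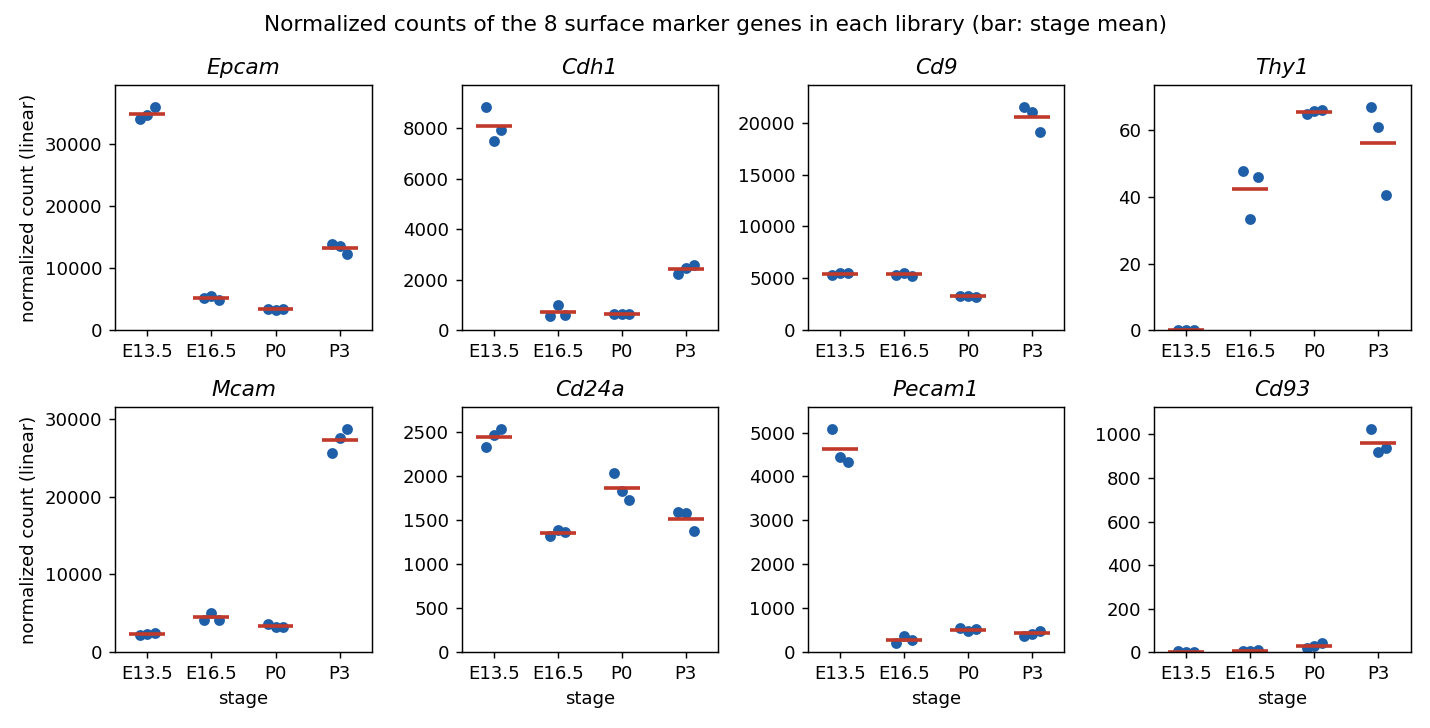
Normalized count (vertical axis, linear, from 0) of each of the 8 genes against stage, with 1 point per library and a red bar at the mean of the 3 libraries of a stage. Epcam, Cdh1, Cd24a (P0 with equal library totals) and Pecam1 were highest at E13.5, Cd9, Mcam and Cd93 at P3, and Thy1 at P0.

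By their highest stage the members split into E13.5 (Epcam, Cdh1, Cd24a and Pecam1), P3 (Cd9, Mcam and Cd93) and P0 (Thy1), and none was highest at E16.5. Of all genes tested, E13.5 was the highest stage for 30.7%, E16.5 for 19.3%, P0 for 29.9% and P3 for 20.2%. The lowest stage was E13.5 for 3 members (Thy1, Mcam and Cd93), E16.5 for 2 (Cd24a and Pecam1) and P0 for 3 (Epcam, Cdh1 and Cd9). With equal library totals Cd24a was highest at P0 and lowest at P3, Cd9 was lowest at E13.5, and Epcam and Cdh1 were lowest at E16.5. From E13.5 to E16.5, 7 of 8 members were called, 3 higher and 4 lower, against 80.1% of all genes (45.5% higher, 34.6% lower). The median log2 fold change was -0.43 for the members and 0.31 for all genes. From E16.5 to P0, 6 members were called, 3 higher and 3 lower, against 61.0% of all genes (27.6% higher, 33.4% lower), with medians of 0.15 and -0.01. This split hung on how libraries were scaled: median-of-ratios factors gave 4 higher and 2 lower, and equal totals 6 higher and 0 lower. From P0 to P3, 6 members were called, 5 higher and 1 lower, against 76.5% (40.1% higher, 36.4% lower), with medians of 1.97 and 0.05; with median-of-ratios factors the split was 5 and 2, and with equal totals 5 and 3.

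Over longer spans, P0 against E13.5 called all 8 members, 3 higher and 5 lower, against 86.1% of all genes (45.7% higher, 40.5% lower); with equal totals the split was 5 higher and 3 lower, and with median-of-ratios factors 3 and 4. The members' median was -0.57, and that of all genes 0.20. P3 against E16.5 called 6 members, all 6 higher, against 69.5% of all genes (34.2% higher, 35.2% lower), and this split was the same with TMM, median-of-ratios and equal-total scaling. The medians were 1.58 for the members and -0.05 for all genes. P3 against E13.5 called all 8 members, 4 in each direction under each of these scalings, against 70.4% of all genes (39.2% higher, 31.2% lower), with medians of 0.61 and 0.16.

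**Figure D2:**
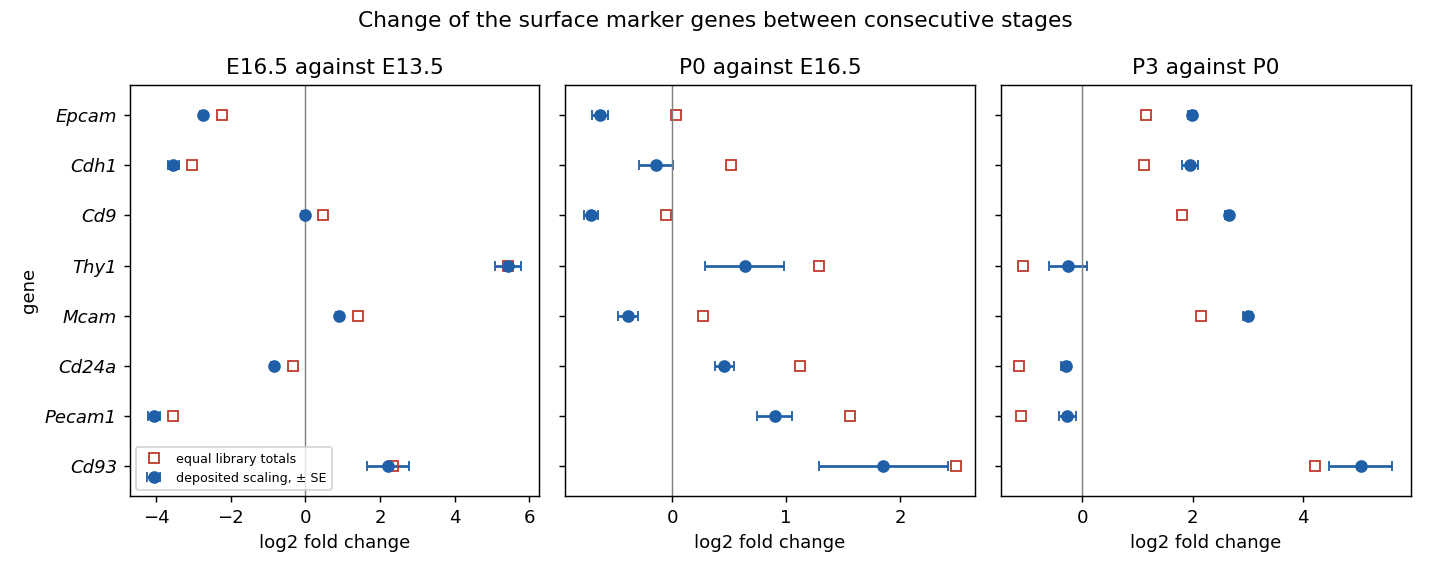
Log2 fold change (horizontal axis, a separate range in each panel) of the 8 genes between consecutive stages, as filled points with the SE under the deposited scaling and as open squares with equal library totals. The squares lie to the right of the points for P0 against E16.5, where those of Epcam, Cdh1 and Mcam pass 0, and to the left for P3 against P0.

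Epcam, which encodes a homophilic adhesion protein of epithelia and stem cells, lies at chr17:87635979-87651129 on the plus strand (GRCm38; gene models here are from GENCODE M21). Its normalized counts were 34051, 34745 and 35934 for E13.5, 5236, 5516 and 4837 for E16.5, 3457, 3189.8 and 3393 for P0 and 13942, 13602 and 12319.5 for P3. The libraries of no 2 stages overlapped, and the order was E13.5, P3, E16.5, P0. Epcam fell 6.73-fold from E13.5 to E16.5 (log2 fold change -2.75, SE 0.07, adjusted p = 4.37e-15), from 34910.0 ± 953 to 5196 ± 341. A change of larger size was seen in 22.4% of all genes tested in that comparison. By P3 it stood 3.97-fold above P0 (log2 fold change 1.99, SE 0.07, adjusted p = 3.24e-13) and 2.56-fold above E16.5 (log2 fold change 1.35, adjusted p = 3.91e-11), but 2.63-fold below E13.5 (log2 fold change -1.40, adjusted p = 2.22e-11). Between E16.5 and P0 it was 1.55-fold lower (log2 fold change -0.63, SE 0.07, adjusted p = 7.16e-07), and with equal library totals that fold change turned to 0.030. The fall from E13.5 to P0 was 10.4-fold (log2 fold change -3.38, adjusted p = 4.54e-16) and stayed a fall with equal totals, at -2.21.

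Partners of EpCAM did not move as 1 block. Among them are the tight junction protein Cldn7, which EpCAM binds, and Spint1 and Spint2, inhibitors of the membrane protease that cleaves EpCAM. Spint1 rose from 627 ± 20.2 at E13.5 to 4888 ± 437 by E16.5, where Epcam had fallen (log2 fold change 2.96, adjusted p = 3.77e-14). It was 2762 ± 368 at P0 and 9339.5 ± 253 at P3, where it rose over P0 together with Spint2 (log2 fold change 1.77, adjusted p = 3.01e-11 for Spint1; log2 fold change 1.06, adjusted p = 7.33e-10 for Spint2). Cldn7 went the other way around birth, with 149 ± 42.5 for E16.5, 951 ± 37.4 for P0 and 209 ± 19.2 for P3 (log2 fold change 2.70 and then -2.18, both called). Sertoli marker sums were also highest at P0, in the ranges given above, and their part in the values of Cldn7 was not tested.

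Cdh1, the gene of E-cadherin, lies at chr8:106603351-106670246 on the plus strand. Its counts were 8828, 7475 and 7941 for E13.5, 554, 979 and 612 for E16.5, 629.7, 622 and 627 for P0 and 2244, 2451 and 2590.2 for P3. All E13.5 libraries stood above all P3 libraries, which stood above the rest, while those of E16.5 and P0 overlapped. It fell 11.6-fold from E13.5 to E16.5 (log2 fold change -3.54, SE 0.15, adjusted p = 1.41e-12), and rose 3.87-fold from P0 to P3 (log2 fold change 1.95, SE 0.15, adjusted p = 3.89e-09) to 2429 ± 174. That left it 3.32-fold below E13.5 (log2 fold change -1.73, adjusted p = 2.15e-08). E16.5 and P0 were not called different (log2 fold change -0.14, SE 0.15 from the fit over all 4 stages, adjusted p = 0.418). The sign of that small difference changed with median-of-ratios factors (0.11), with equal totals (0.52) and without E16.5 library 3 (0.10). With equal totals P0 was called higher (adjusted p = 0.00667). E16.5 library 3 held 979 counts against 554 and 612 in its companions, and the coefficient of variation was 32.2% at E16.5 against 0.606% at P0. Library 3 was also the highest of the E16.5 libraries for Epcam, Cd9, Mcam, Cd24a and Pecam1, and the lowest for Thy1.

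Epcam and Cdh1 had the closest courses of any pair of members over the 12 libraries, with a Pearson r of 0.983 on log2 values; the libraries of a stage share their time of collection and scaling, so this describes 4 stages more than 12 independent points. Cdh3, which encodes P-cadherin, lies 46053 bases before Cdh1 on the same strand and chromosome, with 2 gene models between them. Its course resembled that of Cdh1 at the first step: 3551 ± 294 for E13.5, 237 ± 40.0 for E16.5, 406 ± 104 for P0 and 889 ± 93.6 for P3. Cdh3 fell from E13.5 to E16.5 (log2 fold change -3.91, adjusted p = 1.77e-12) and rose from P0 to P3 (log2 fold change 1.16, adjusted p = 9.28e-06), a call that ended with equal totals (0.32). Ctnna1, the alpha-catenin that links cadherins to actin, went from 10411 ± 449 to 1626 ± 240.2 (log2 fold change -2.69, adjusted p = 4.36e-13) and from 1975 ± 168 at P0 to 7039 ± 679 at P3 (log2 fold change 1.83, adjusted p = 7.79e-11). Ctnnd1, the p120 catenin that keeps cadherins at the surface, fell and rose at the same steps (log2 fold change -0.98, adjusted p = 4.84e-05, then log2 fold change 1.47, adjusted p = 6.27e-07). Jup, the plakoglobin of desmosomes, did the opposite (log2 fold change 0.76, adjusted p = 0.000234, then log2 fold change -0.87, adjusted p = 6.94e-05).

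Counted over the 8 listed cadherin and catenin genes, 3 rose and 4 fell from E13.5 to E16.5, 5 rose and 1 fell from E16.5 to P0, and 4 rose and 3 fell from P0 to P3. With equal totals these were 3 and 3, 8 and 0, and 2 and 5; of all genes 80.1%, 61.0% and 76.5% were called. The list's median log2 fold changes were -0.38, 0.60 and 0.09, where all genes had 0.31, -0.01 and 0.05. Ctnnb1, the beta-catenin, stayed abundant, with 23544 ± 346 for E13.5, 16777 ± 1646 for E16.5, 13693 ± 834 for P0 and 18160.3 ± 1004 for P3. Cdh2, the N-cadherin of Sertoli and germ cells, held 369 ± 13.2, 309.8 ± 34.0, 510.3 ± 36.2 and 441 ± 65.1 in the same order. Under the deposited scaling this was a narrow range beside the changes of Cdh1 and Cdh3. With equal totals Cdh2 was among the 8 genes called higher at P0 than at E16.5.

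Cd9 lies at chr6:125460266-125494791 on the minus strand. Its counts were 5346, 5508 and 5522 for E13.5, 5349, 5537 and 5219.7 for E16.5, 3296, 3276 and 3232 for P0 and 21487, 21047 and 19135 for P3. All 3 P3 libraries stood apart above the rest, those of P0 lay lowest, and E13.5 and E16.5 overlapped. Cd9 rose 6.28-fold from P0 to P3 (log2 fold change 2.65, SE 0.06, adjusted p = 9.84e-15), and at 20556 ± 1251 it exceeded E13.5 by 3.76-fold (log2 fold change 1.91, adjusted p = 1.45e-13) and E16.5 by 3.82-fold (log2 fold change 1.94, adjusted p = 2.05e-13). The 2 fetal stages were not called different (log2 fold change -0.024, SE 0.06, adjusted p = 0.729). With TMM factors the fold change was 0.062, with median-of-ratios factors 0.20 and with equal totals 0.48, the last 2 of them called. P0 was 1.64-fold below E16.5 (log2 fold change -0.72, adjusted p = 4.45e-08), a call that ended with equal totals (-0.052, adjusted p = 0.412), and 1.67-fold below E13.5 (log2 fold change -0.74, adjusted p = 8.17e-09), which turned to 0.43 with equal totals. The rise to P3 was a rise under every scaling, with 1.81 at equal totals.

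Of the 50-base words of the Cd9 transcripts, 14.4% also occur in other genes, and 218 exonic bases overlap Gm26728 on the opposite strand. Whether counting used strand is not given in the sources used here, so reads there cannot be assigned for certain; Gm26728 itself had 2 to 39 reads in a library, against 5062 to 22174 for Cd9. Platelets are rich in CD9. The 6 listed platelet and megakaryocyte genes summed to 14.8 to 21.0 for E13.5, 417 to 591 for E16.5, 1176 to 1329.7 for P0 and 131 to 178 for P3. All 4 of them that passed the filter fell from P0 to P3, the step at which Cd9 rose, and Gp1bb was at 0 in every library. The part of platelets in the Cd9 values was not tested.

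Other tetraspanins took different courses. Of 10 listed tetraspanins and partners, 5 rose and 2 fell at E16.5, 5 rose and 4 fell at P0, and 5 rose and 4 fell at P3. With equal totals the counts were 7 and 2, 6 and 2, and 3 and 6. Of all genes tested 80.1%, 61.0% and 76.5% were called at these steps. Cd82, a tetraspanin known as a brake on metastasis, rose from 256 ± 38.5 at P0 to 2280.3 ± 66.0 at P3 (log2 fold change 3.16, adjusted p = 1.56e-09). Cd81, the partner of CD9 at the egg surface and elsewhere, fell from 4633 ± 126 to 1987 ± 357 between the fetal stages (log2 fold change -1.24, adjusted p = 4.52e-07) and rose to 5917 ± 176 at P3 (log2 fold change 1.17, adjusted p = 1.1e-06 against P0). Tspan8 and Tspan33 rose at the first step instead: Tspan8 went from 72.6 ± 14.8 to 2045 ± 123 (log2 fold change 4.82, adjusted p = 1.26e-14), and Tspan33 from 623 ± 37.1 to 4803 ± 759 (log2 fold change 2.93, adjusted p = 1.7e-13). Both fell from P0 to P3 (log2 fold change -1.38 for Tspan8 and -0.80 for Tspan33). Igsf8, an immunoglobulin protein that binds CD9 and CD81, fell from 5986 ± 172 at E16.5 to 2352 ± 188 at P0 (log2 fold change -1.35, adjusted p = 2.38e-10). Ptgfrn, another such partner, rose from P0 to P3 (log2 fold change 1.70, adjusted p = 1.12e-08), to 722 ± 68.5.

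Thy1 lies at chr9:44043384-44048579 on the plus strand. No read was assigned to it in any E13.5 library. Its counts were 47.7, 33.5 and 45.9 for E16.5, 64.7, 65.8 and 66.1 for P0 and 66.9, 60.9 and 40.5 for P3, from 50, 36 and 58, 124, 121 and 137 and 69, 62 and 40 reads. Every later library thus stood above E13.5, while the range of P3 overlapped those of E16.5 and P0, which did not overlap each other. A count of 0 was taken to allow up to 3 reads in a library, 3.20 normalized counts over E13.5. On that limit Thy1 was at least 13.3-fold higher for E16.5, at least 20.5-fold for P0 and at least 17.6-fold for P3. Thy1 was called in each of these comparisons. It passed the filter through its later libraries alone, so no p-value is given for them. Its adjusted p was 0.121 for P0 against E16.5 (log2 fold change 0.63), 0.513 for P3 against P0 (-0.25) and 0.334 for P3 against E16.5 (0.38), none of them called. P0 against E16.5 was called with median-of-ratios factors (0.89) and with equal totals (1.29), and P3 against P0 with equal totals (-1.08). Under the deposited scaling, P0 against E16.5 was also called with a pseudocount of 10 (adjusted p = 0.0324). The same holds for a limma fit of those 2 stages alone (adjusted p = 0.0327). The reads floor covers counting error only.

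Thy1 was low at every stage. Divided by its exon length it reached 14.1 normalized counts per kilobase for E16.5, 21.9 for P0 and 18.7 for P3, above 27.8%, 29.9% and 36.1% of the genes tested. Markers of peritubular and stromal cells, which carry THY1, were read beside it: the 11 listed genes summed to 249 to 386 for E13.5, 2099 to 2616 for E16.5, 5223 to 5337 for P0 and 2306 to 2843 for P3. Of these, 9 of 10 tested rose from E13.5 to E16.5, as Thy1 did, and 0 fell. At the later steps, where Thy1 was not called, 7 rose and 0 fell from E16.5 to P0 (9 and 0 with equal totals), and 0 rose and 6 fell from P0 to P3 (0 and 9). Cd3e, of T cells, held 1.45 ± 2.51, 52.0 ± 11.1, 156 ± 17.5 and 83.9 ± 18.4 over the same stages. Their part in the Thy1 values was not tested. Prom1 and Cd44, stem cell markers of other tissues, were also low. Cd44 held 0.704 ± 1.22 at E13.5, where no library had more than 3 reads of it, and 13.4 ± 3.70 at E16.5. Prom1 went from 235 ± 36.7 at P0 to 34.1 ± 15.7 at P3 (log2 fold change -2.86, adjusted p = 3.97e-06).

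Mcam lies at chr9:44134469-44142727 on the plus strand, 85889 bases beyond the end of Thy1, with 9 gene models between them, 5 of them protein coding (Usp2, Rnf26, Mfrp and C1qtnf5 included). Its counts were 2257, 2387 and 2538 for E13.5, 4181, 5108 and 4171 for E16.5, 3676, 3300.1 and 3258 for P0 and 25583, 27483 and 28667 for P3. The P3 libraries stood far above all others, and no 2 stages overlapped. Mcam rose 7.99-fold from P0 to P3 (log2 fold change 3.0, SE 0.09, adjusted p = 5.12e-14), from 3412 ± 230.2 to 27244 ± 1555. A change of larger size was seen in 11.7% of all genes in that comparison. Against E16.5 the rise was 6.09-fold (log2 fold change 2.61, adjusted p = 2.51e-13) and against E13.5 11.4-fold (log2 fold change 3.51, adjusted p = 4.43e-15). Earlier steps were smaller: E16.5 was 1.87-fold above E13.5 (log2 fold change 0.90, SE 0.09, adjusted p = 5.05e-08), and P0 was 1.31-fold below E16.5 (log2 fold change -0.39, adjusted p = 0.000897), which was not called with median-of-ratios factors (-0.13, adjusted p = 0.171) and turned to 0.27 with equal totals. P0 was 1.42-fold above E13.5 (log2 fold change 0.51, adjusted p = 3.33e-05).

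Between P0 and P3 the log2 fold change was 3.0 for Mcam and -0.25 for Thy1, its neighbour, which was not called; the difference between the genes was not tested. Pericytes carry MCAM. The 6 listed pericyte markers summed to 546 to 656 for E13.5, 879 to 1053 for E16.5, 971 to 1003 for P0 and 191 to 254 for P3, and all 6 fell from P0 to P3 while Mcam rose. At P3 the highest pericyte marker was Pdgfrb at 103 ± 28.4. Endothelium carries MCAM too, and its 10 listed markers summed to 3122 to 3579.8 for P0 and 3128 to 3167 for P3. Of these 10, 3 rose and 6 fell from P0 to P3 (1 and 6 with equal totals). The part of either cell type in the Mcam values was not tested. A stretch of 17 exonic bases of Mcam overlaps the antisense model Gm10687, and none of its 50-base words occurs in another gene.

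Cd24a lies at chr10:43578284-43584265 on the plus strand and varied least among the members, with a ratio of 1.80 between its highest and lowest stage means. Its counts were 2324, 2460.3 and 2528 for E13.5, 1322, 1387 and 1359.7 for E16.5, 2032, 1824 and 1729.8 for P0 and 1585, 1576 and 1372 for P3. The E13.5 libraries were highest, those of P0 second, and those of E16.5 and P3 overlapped. Cd24a fell 1.80-fold from E13.5 to E16.5 (log2 fold change -0.84, SE 0.08, adjusted p = 8.1e-08), from 2438 ± 104 to 1356 ± 33.0. It rose 1.37-fold to P0 (log2 fold change 0.45, adjusted p = 0.000184) and fell 1.23-fold to P3 (log2 fold change -0.30, adjusted p = 0.0038). P3 was 1.62-fold below E13.5 (log2 fold change -0.69, adjusted p = 1.34e-06). P3 and E16.5 did not pass the test (log2 fold change 0.15, SE 0.08, adjusted p = 0.115), a difference whose sign changed with median-of-ratios factors (-0.030) and equal totals (-0.025) and which was called without P3 library 4 (0.22, adjusted p = 0.0316). P0 was below E13.5 under the deposited scaling (log2 fold change -0.39, adjusted p = 0.00036), but the sign changed with median-of-ratios factors (0.089, not called) and equal totals (0.78, called).

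Red cell precursors carry CD24. The 7 listed erythroid genes summed to 86.2 to 460.3 for E13.5, 1825 to 2556 for E16.5, 1648 to 2625 for P0 and 312 to 585 for P3. E13.5, where Cd24a was highest under the deposited scaling, had a range below those of E16.5 and P0. With equal totals Cd24a was highest at P0. The part of red cell precursors in the Cd24a values was not tested. Of the 50-base words of Cd24a, 2.75% occur in Gm6212, which had at most 10 reads in a library.

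Pecam1 lies at chr11:106654217-106750628 on the minus strand. Its counts were 5074, 4453 and 4326 for E13.5, 212, 359.8 and 274 for E16.5, 544, 475 and 526 for P0 and 379.9, 418 and 487 for P3. The E13.5 libraries stood far above the others, E16.5 was lowest, and P0 and P3 overlapped. Of the members that fell from E13.5 to E16.5, Pecam1 had the largest fold, 16.7-fold (log2 fold change -4.06, SE 0.15, adjusted p = 3.62e-13), from 4618 ± 400.3 to 282 ± 74.3. A larger change was seen in 10.1% of all genes tested. It rose 1.86-fold from E16.5 to P0 (log2 fold change 0.90, adjusted p = 8.58e-05) but stayed 8.95-fold below E13.5 (log2 fold change -3.16, adjusted p = 4.74e-12). P3 against P0 was not called (log2 fold change -0.27, SE 0.15, adjusted p = 0.119), though it was with TMM (-0.44), median-of-ratios (-0.71) and equal-total scaling (-1.11). P3 was 1.55-fold above E16.5 (log2 fold change 0.63, adjusted p = 0.00163) and 10.8-fold below E13.5 (log2 fold change -3.43, adjusted p = 5.33e-12).

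PECAM1 is best known from endothelium. At E13.5, where Pecam1 was highest, the endothelial genes Tie1 and Emcn were at 0 in all 3 libraries, Kdr, the main VEGF receptor, held 2.84 ± 3.22 and Cdh5, the endothelial cadherin, 9.92 ± 6.39. The 10 listed endothelial markers summed to 1218 to 1272 for E13.5, 2914 to 3731 for E16.5, 3122 to 3579.8 for P0 and 3128 to 3167 for P3; at E13.5 most of this was Egfl7 (581) and Cldn5 (503). From E13.5 to E16.5, 8 of the 10 rose and 1 fell, opposite to Pecam1. From E16.5 to P0, where Pecam1 rose, 6 of the 10 rose and 1 fell (9 and 0 with equal totals), with Tie1 at 215 ± 28.6 and 692 ± 62.0. The part of endothelium in the Pecam1 values was not tested at any stage.

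Cd93 lies at chr2:148436640-148443563 on the minus strand. Its counts were 4.22, 0 and 0 for E13.5, 3.82, 7.44 and 11.9 for E16.5, 18.3, 27.7 and 43.4 for P0 and 1023, 917 and 938 for P3, from 4, 0 and 0, 4, 8 and 15, 35, 51 and 90 and 1056, 934 and 927 reads. The fetal libraries overlapped at the bottom, those of P0 came next, and those of P3 stood far above. Cd93 rose from 29.8 ± 12.7 at P0 to 959.6 ± 56.2 at P3, 33.0-fold (log2 fold change 5.04, SE 0.57, adjusted p = 4.61e-07), and a larger change was seen in 1.44% of all genes. Against E16.5 the log2 fold change was 6.90 (adjusted p = 1.22e-08). Cd93 was also called higher at P3 than at E13.5, but no size or p-value is given against E13.5. There 2 libraries had no read, and Cd93 passed the filter through its later libraries alone. The steps before birth rest on few reads: E16.5 was called above E13.5, although the libraries overlapped, and from E16.5 to P0 the log2 fold change was 1.85 (adjusted p = 0.00955). The latter lost its call with a pseudocount of 0.1 (adjusted p = 0.160) and without E16.5 library 1 (adjusted p = 0.0538).

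Endothelial markers went both ways at the step where Cd93 rose. From P0 to P3, 6 of the 10 fell and 3 rose, and with equal totals 6 fell and 1 rose. Tie1 fell, with 692 ± 62.0 and then 51.2 ± 13.2 (log2 fold change -3.76, adjusted p = 1.29e-09) and Emcn from 135 ± 20.4 to 17.3 ± 12.3 (log2 fold change -3.13, adjusted p = 1.22e-05). Cdh5 held 45.3 ± 8.46 and 23.1 ± 2.35, Kdr 89.7 ± 19.0 and 102 ± 42.9, Erg 85.0 ± 15.4 and 289 ± 22.3, and Egfl7 1448 ± 121 and 2447 ± 60.0. Macrophage and leukocyte markers, a further source of CD93, summed to 839.8 to 1124 at P0 and 997 to 1060.1 at P3. Of 9 tested, 1 rose and 3 fell over that step (1 and 7 with equal totals). The part of endothelium and leukocytes in the Cd93 values was not tested. Of CD93's relatives and ligand, Clec14a fell, with 22.2 ± 4.17 and then 3.89 ± 3.88 (log2 fold change -2.71, adjusted p = 0.00203), whereas Mmrn2, an extracellular ligand of both proteins, rose from 57.6 ± 23.3 to 160.2 ± 7.49 (log2 fold change 1.53, adjusted p = 0.000102). At the first step Mmrn2 had fallen (log2 fold change -1.85, adjusted p = 1.17e-05). Clec14a was called higher there, but no size is given, since no E13.5 library had more than 3 reads of it. Thbd and Cd248 did not pass the test from P0 to P3; they held 77.9 ± 36.1 and 92.2 ± 28.5 at P3.

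**Figure D3:**
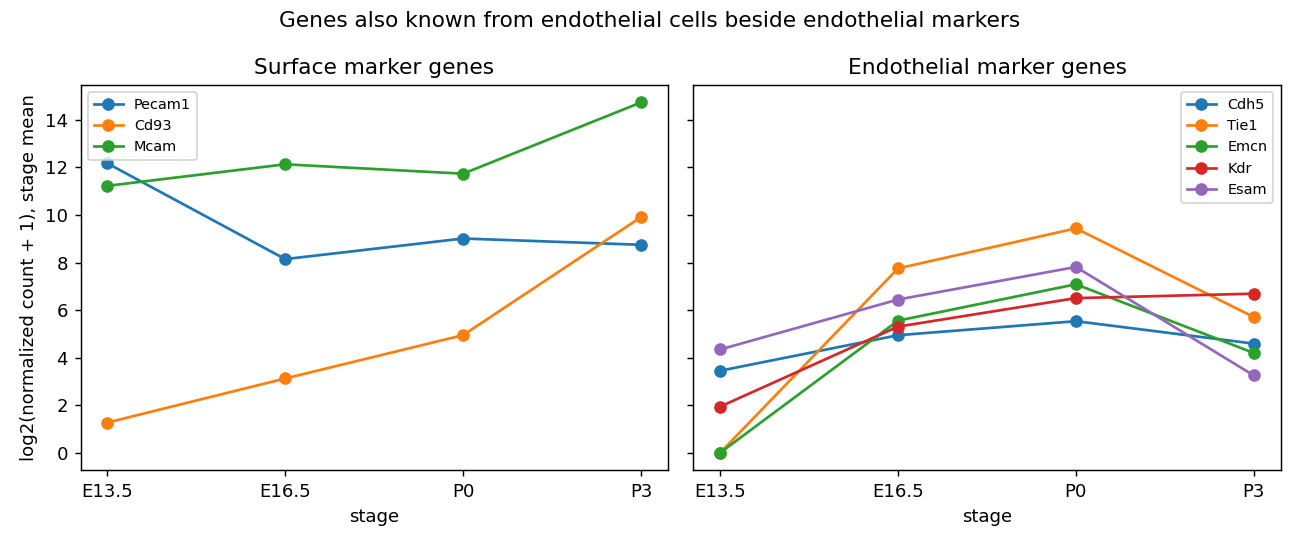
Stage means of log2(normalized count + 1) (vertical axis) against stage for Pecam1, Cd93 and Mcam (left) and for 5 endothelial marker genes (right); levels are not scaled by length, so courses rather than heights compare between genes. Tie1 and Emcn start at 0 where Pecam1 is highest, and fall from P0 to P3 where Cd93 and Mcam rise. The 5 genes are some of the 10 listed, of which 3 rose and 6 fell from P0 to P3 (1 and 6 with equal totals). Egfl7, which is not drawn, had the highest mean of the 10 at each stage, with 581 at E13.5, 1448 at P0 and 2447 at P3.

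Per kilobase of exon, the order of the members changed with stage. At E13.5 Epcam led with 15904 normalized counts per kilobase, above 99.3% of the genes tested, before Cd9 (2671), Cdh1 (1767), Cd24a (945), Pecam1 (741) and Mcam (715), the last 2 within their spread. At E16.5 Cd9 (2627) and Epcam (2367) led, followed by Mcam (1339), and Pecam1 had dropped to 45.3, under the median of 54.2 over all genes. P0 kept that order, with 1599 for Cd9, 1525 for Epcam and 1018 for Mcam. At P3 Cd9 (10057) and Mcam (8133) passed Epcam (6054); they stood above 99.3%, 98.8% and 98.2% of genes. Cd93, at most 4.46 up to P0, reached 144 at P3 and passed Pecam1 (68.8) and Thy1 (18.7).

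**Figure D4:**
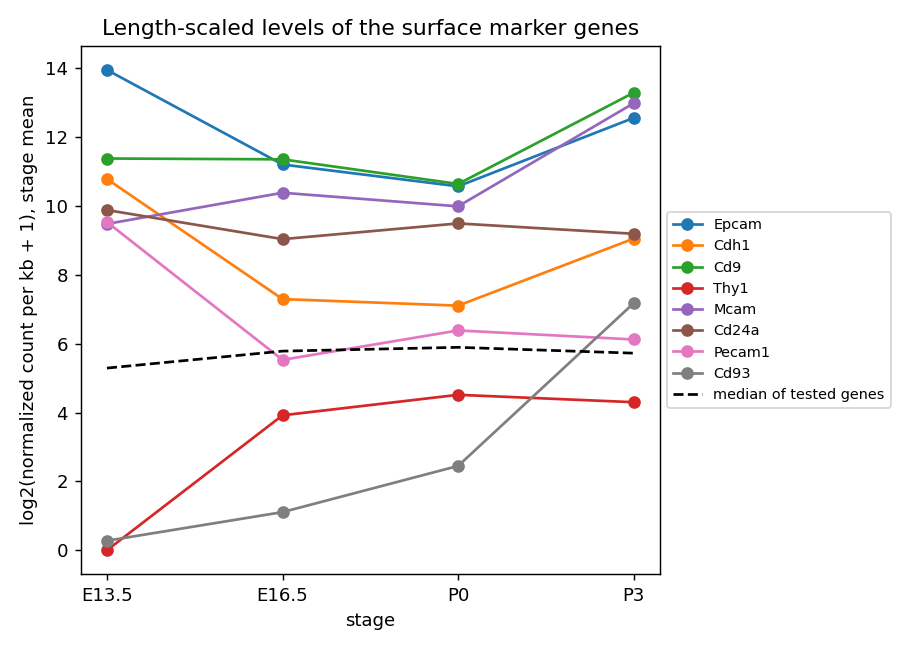
Stage means of the length-scaled level, as log2(normalized count per kilobase of exon + 1), of the 8 genes against stage, with the median of all genes tested as a dashed line. Thy1 lies below that line at every stage, Cd93 crosses it only at P3, and Cd9, Mcam and Epcam are the top 3 at P3.

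The genes nearest to each member in course were found by Pearson r over the 12 libraries on log2(normalized count + 1), among 13614 genes with a stage mean of at least 100 and a proper symbol (13615 for Thy1); with 4 stages shared by all libraries such values run high for many genes, and they are descriptions. Nearest to Epcam were Ran (r = 0.999) and Saal1 (r = 0.999); Ran, the small GTPase of nuclear transport, had stage means of 109018, 27528, 20375 and 55219.9 from E13.5 to P3. Nearest to Cdh1 were Srgap3 (r = 0.997) and Chfr (r = 0.996). For Pecam1 they were Lgr4 (r = 0.997) and Gls2 (r = 0.995); Lgr4, an R-spondin receptor, ran 5011, 201, 393 and 323. For Cd9 they were Ddb2 (r = 0.992) and Cirbp (r = 0.991); Cirbp, a cold-inducible RNA-binding protein, ran 6449, 4939, 2349 and 32257. For Mcam they were Rnf227 (r = 0.994) and Tmod3 (r = 0.993), and for Cd24a Cers2 (r = 0.978) and Srp72 (r = 0.975). For Cd93 they were Jam3 (r = 0.985) and Ptprf (r = 0.981); Jam3, a junctional adhesion molecule, ran 363, 445, 550.2 and 1006, a smaller range than that of Cd93. For Thy1 they were Tmem52 (r = 0.997) and A2ml1 (r = 0.996); A2ml1 was, like Thy1, at 0 in all libraries at E13.5. Among the members themselves, Cd9 and Mcam had r = 0.916, and Pecam1 and Thy1 r = -0.953.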

How the data were processed

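The authors deposited 1 table of 55487 genes by 12 libraries. Its signal values are featureCounts read counts scaled by RLE (relative log expression), per the file headers and name. Whole reads were recovered for 100% of the values (tolerance 0.001) by dividing by each library's smallest step. The submitters' processing notes name bcl2fastq 2.20, cutadapt 1.18, HISAT2 2.1.0, featureCounts 1.5.2, DESeq2 1.26.0 and the builds mm10 and GRCm38, without roles. Annotation release and strand setting are not given in the sources used here. Per the labels' protocols, libraries were made with SMART-seq v4 amplification and a TruSeq kit; amplified reads carry no molecular identifiers.

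Columns were assigned to stages only. Log2(normalized count + 1) was fitted over all 4 stages with limma 3.58.1 in R 4.3.3 (eBayes with a trend) and adjusted by Benjamini-Hochberg over 22384 genes. Named genes are the 8 members, the members of the related and marker lists, and for each member the 2 genes of highest r. 1 gene of these lists is not reported here. Alternatives were TMM, median-of-ratios and equal-total scaling, pseudocounts of 0.1 and 10, no filter, a fit of the 2 stages compared, each library left out, and edgeR 4.0.16 and DESeq2 1.42.0 on recovered reads. A fit with the column number as a block was added after seeing the data. Scripts were tested on simulated data. The members and lists were chosen with earlier results of these data known. Python 3.11.15 was used for the remaining steps.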

Additional observations from a re-analysis of the deposited data

How the results depend on the processing

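Of 1055 values of the 8 genes' fold changes under an alternative, 1029 kept their direction and their side of the threshold, 4 lost and 9 gained a call, and 13 changed sign. Leaving out 1 library made up 576 of these values, of which 573 were kept. EdgeR and DESeq2 on recovered reads, with the deposited factors, kept all 48 each. Other scalings kept fewer: 46 of 48 with TMM factors, 41 with median-of-ratios factors and 37 with equal totals. With equal totals the sign changed for Epcam (0.030), Cdh1 (0.52) and Mcam (0.27) in P0 against E16.5, Cd9 in E16.5 against E13.5 (0.48) and P0 against E13.5 (0.43), and Cd24a in P0 against E13.5 (0.78) and P3 against E16.5 (-0.025). With median-of-ratios factors it changed for Cdh1 in P0 against E16.5 (0.11), Cd9 in E16.5 against E13.5 (0.20), and Cd24a in P0 against E13.5 (0.089) and P3 against E16.5 (-0.030). It also changed for Cd9 in E16.5 against E13.5 with TMM factors (0.062) and for Cdh1 in P0 against E16.5 without E16.5 library 3 (0.10; from -0.31 to 0.10 over the libraries left out). These shifts follow from the scalings' own medians; the cause of the last was not tested.

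Leaving out 1 library at a time gave 7 of 8 members called in E16.5 against E13.5, 5 to 6 in P0 against E16.5, 6 in P3 against P0, 8 in P0 against E13.5, 6 to 7 in P3 against E16.5, and 8 both in P3 against E13.5 and among stages. A fit of E13.5 and E16.5 alone called 6 members there, since Cd93 did not pass the filter in it, and such a fit of P0 and E16.5 called 7. Thy1 at all stages and Cd93 up to P0 rest on few reads. The column numbers 1, 3 and 4 recur at each stage, and nothing in the labels says that they mark a pairing; deviations from the stage means of same-numbered libraries had an r of -0.036 to 0.042 over 18 pairs of libraries, and 2 of 12 libraries were closest to their own number. A fit with that number as a replicate block, chosen after seeing the data, called 7, 6, 6, 8, 6 and 8 members in the 6 comparisons, in the order above, and 8 among stages, as without it. It called 17911, 13529 and 17028 of all genes for consecutive stages, against 17932, 13658 and 17122 without the block.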

Other observations

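Other surface genes used on germ cells or stem cells were read beside the 8. Of 14 listed, 4 rose and 8 fell from E13.5 to E16.5, 7 rose and 4 fell from E16.5 to P0, and 7 rose and 5 fell from P0 to P3; with equal totals these were 6 and 4, 10 and 2, and 7 and 6. Of all genes tested 80.1%, 61.0% and 76.5% were called at these steps. The GDNF receptor genes rose to P3 like Mcam and Cd93: Gfra1 from 575 ± 51.4 to 15269 ± 1436 (log2 fold change 4.73, adjusted p = 2.22e-13) and Ret from 1099 ± 24.9 to 13662 ± 2039 (log2 fold change 3.62, adjusted p = 6.1e-14). Itga6 and Itgb1, integrin subunits used to enrich spermatogonial stem cells, also rose (log2 fold change 1.52, adjusted p = 1.37e-09 and log2 fold change 1.36, adjusted p = 6.74e-10). Kit, the receptor of migrating and differentiating germ cells, and Alpl, the alkaline phosphatase that marks primordial germ cells, rose over the same step, to 3139 ± 524 and 5598 ± 457 (log2 fold change 1.28 and 1.54), as did the chemokine receptor gene Cxcr4 (1.72, to 182 ± 18.4).

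From E13.5 to E16.5, Kit fell, with 7276 ± 959.7 and then 2804 ± 133 (log2 fold change -1.37, adjusted p = 1.05e-08). Fut4 was lower at E16.5 too, at 17.8 ± 7.20 against 123 ± 28.7 for E13.5 (log2 fold change -2.76, adjusted p = 3.9e-07). Cd34 and Cd47 went the other way. Cd34 rose from 17.8 ± 6.76 to 873 ± 91.7 (log2 fold change 5.59, adjusted p = 5.78e-12) and Cd47, a signal against engulfment, from 1714 ± 33.7 to 5078 ± 573 (log2 fold change 1.56, adjusted p = 3.66e-11). Both fell from P0 to P3, Cd34 to 120.4 ± 43.0 (log2 fold change -1.77, adjusted p = 1.3e-05) and Cd47 to 2276 ± 197 (log2 fold change -1.15, adjusted p = 2.69e-09). CD34 is also carried by endothelium and stroma, whose marker sums rose from E13.5 to E16.5 too; their part in Cd34 was not tested. Mast cell markers summed to 0 in all E13.5 libraries, 27.9 to 46.7 for E16.5, 1519.9 to 3235 for P0 and 3.04 to 322 for P3, and Leydig cell markers to 2208 to 2391, 1977 to 9467, 2460.1 to 8382 and 2282 to 2836.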
